A study of Homo sapiens with 7 samples.

Results

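MX1, MX2, BST2, IFI6, IFI27, IFI44, IFI44L, IFITM1, IFITM2 and IFITM3 code for proteins that act late in the antiviral response, on viruses themselves or on infected cells. The 10 genes were named as families of antiviral effectors and selected on earlier results of this same comparison, in which their counts were lower after stretch than after doxorubicin for most of them. Of the 10, 8 were measured, among 14535 genes in all, and the expression of IFI44L and IFITM1 was not analysed here. The cells were A549, an epithelial line from a human lung adenocarcinoma, sorted for β-galactosidase, whose activity marks senescent cells. In 4 libraries (replicates 4 to 7) the cells had undergone cyclic stretch for 24 h (15 cycles per min, each an elongation of 15%), and in 3 libraries (replicates 1 to 3) they had been exposed for 24 h to 100 nM doxorubicin, a drug that poisons topoisomerase II and breaks DNA. Staining was assessed after 6 days, only positive cells were used, and no untreated cells were analysed here. A gene lower after stretch is therefore the same observation as one higher after doxorubicin. The sources used here do not say whether replicates were separate cultures, so p-values reflect how these libraries vary, and that variation could be technical. In sorted pools, fewer cells that express a gene and less RNA per cell cannot be told apart.

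Interferons are secreted proteins that cells release when they sense foreign or misplaced nucleic acid. Type I interferon acts through the receptor pair IFNAR1 and IFNAR2 and the kinases JAK1 and TYK2, which lead to assembly of the factor ISGF3, STAT2 and IRF9 among its subunits. ISGF3 binds the interferon-stimulated response element (ISRE) in promoters and switches on a broad set of genes, these effectors among them. Senescent cells with DNA in the cytosol can activate the same genes through the sensor cGAS and its partner STING. MX1 and MX2 are dynamin-like GTPases that trap viral components. BST2, or tetherin, holds budding virions at the cell surface. IFITM proteins sit in membranes and hinder viral entry. IFI6 and IFI27 are small hydrophobic proteins, and IFI44 and IFI44L are related cytoplasmic proteins.

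The promoters found for the members share a sequence feature. RefSeq promoters on GRCh38.p14, spanning 250 bases before to 50 after a transcription start, were matched by symbol for 8 of the 10 genes, all except MX2 and IFITM2. The core ISRE letters GAAANNGAAA, searched on both strands, occurred in at least 1 promoter of all 8. The same letters occurred in 4.38% of 27305 genes with a promoter, and in 3.57% of 35116 promoters. A second motif, the GAS element known from interferon gamma responses, was searched as TTCNNNGAA, which reads the same on both strands. It occurred in 4 of the 8 (BST2, IFI27, IFITM1 and MX1), against 9.38% of all genes. In each of these 4 a GAS match overlapped an ISRE match, so the motifs are not independent there. Because interferon genes were picked as such, no test was made of these shares, and a match of letters is not evidence of binding. The 200 bases before the start are shown, 5′ to 3′ on the strand of the gene, for the 5 called members described below, with ISRE letters in capitals.
MX1: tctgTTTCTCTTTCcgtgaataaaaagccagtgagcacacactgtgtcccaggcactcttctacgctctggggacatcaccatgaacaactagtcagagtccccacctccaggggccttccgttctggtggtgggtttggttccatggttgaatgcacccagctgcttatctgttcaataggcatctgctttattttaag
BST2: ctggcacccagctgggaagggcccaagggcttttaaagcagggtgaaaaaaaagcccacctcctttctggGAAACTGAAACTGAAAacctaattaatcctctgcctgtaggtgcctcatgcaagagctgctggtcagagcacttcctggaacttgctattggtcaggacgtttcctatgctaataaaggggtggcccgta
IFI6: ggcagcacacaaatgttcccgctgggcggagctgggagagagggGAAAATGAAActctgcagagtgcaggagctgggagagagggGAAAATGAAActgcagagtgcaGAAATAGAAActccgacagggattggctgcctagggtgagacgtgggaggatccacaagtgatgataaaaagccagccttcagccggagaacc
IFITM3: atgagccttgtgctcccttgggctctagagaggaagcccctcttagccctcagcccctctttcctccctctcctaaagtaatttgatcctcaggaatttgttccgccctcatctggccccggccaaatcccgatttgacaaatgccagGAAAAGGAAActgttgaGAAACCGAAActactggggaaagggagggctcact
IFI44: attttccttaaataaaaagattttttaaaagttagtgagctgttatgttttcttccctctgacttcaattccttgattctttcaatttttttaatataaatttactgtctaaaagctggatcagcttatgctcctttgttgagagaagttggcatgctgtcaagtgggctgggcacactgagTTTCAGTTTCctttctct

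These stretches lie at chr21:41431850-41432049 on the plus strand for MX1, at chr19:17405631-17405830 on the minus strand for BST2 and at chr1:27672193-27672392 on the minus strand for IFI6. The IFITM3 stretch lies at chr11:320861-321060 on the minus strand, and the IFI44 stretch at chr1:78649589-78649788 on the plus strand. IFI6 carried 3 matches, at 156, 115 and 93 bases before the start, the most of any member. BST2 carried 2 matches that overlap each other, so that the element reads as a run of GAAACT repeats. IFITM3 carried 2 matches close to the start, at 52 and 35 bases before it. IFI44 carried 1 match, on the opposite strand, 18 bases before the first of its 2 annotated starts. MX1 has 3 annotated starts. The promoter shown, of the third, had a match on the opposite strand 196 bases before the start. The first start had a match 11 bases after it, and the second had none of the letters searched. The third was thus the only one with a match before the start. Elements with other than 2 bases between the GAAA repeats were not searched.

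**Figure D1:**
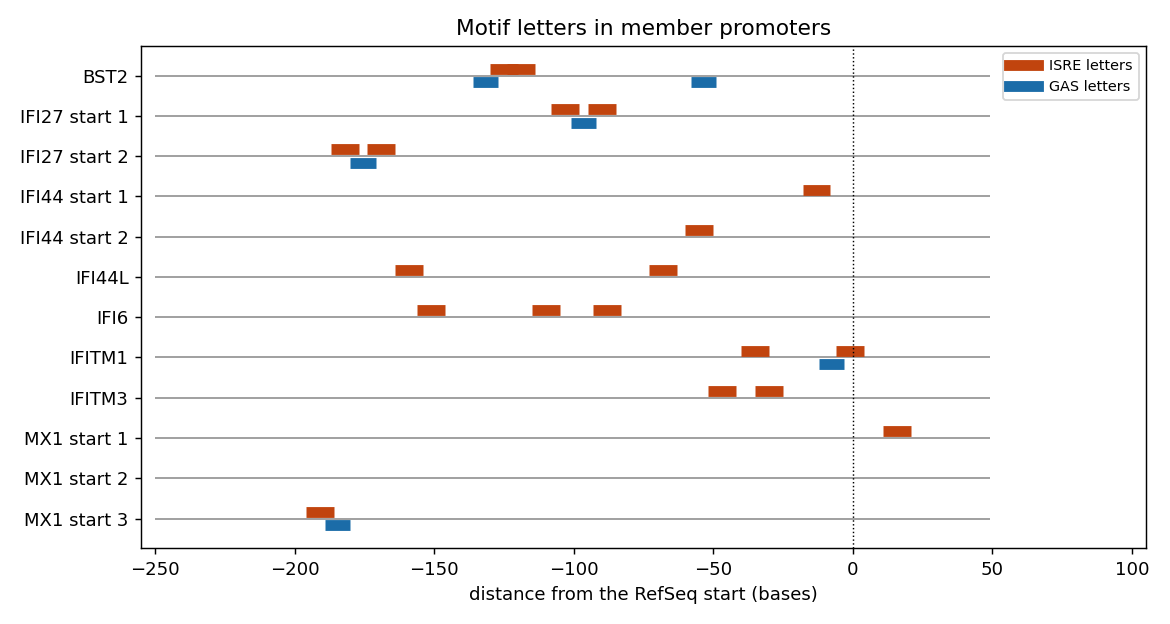
Positions of ISRE letters (orange, above each line) and GAS letters (blue, below) in the RefSeq promoters of 8 members, with distance from the transcription start in bases on the x axis and 1 line per annotated start. Paired starts of IFI27, and those of IFI44, show the same elements in shifted windows, and the second start of MX1 has no match.

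The libraries differed in depth and in likeness, which bears on every value below. Total counts ran from 5636386 to 7419778 in the stretch libraries and were 3453256, 2611739 and 4644250 in doxorubicin libraries 1, 2 and 3. Values are given as CPM, counts scaled by library size and by TMM factors, which were 1.25 to 1.33 for stretch and 0.730, 0.443 and 1.14 for doxorubicin. A level of 3 counts corresponds to 0.321 to 0.401 CPM in stretch and to 1.19, 2.59 and 0.567 CPM in doxorubicin. EIF4A2 took 1.67 to 2.87% of the counts of stretch libraries and 16.1, 30.6 and 10.8% of those of doxorubicin libraries 1, 2 and 3. Rows at 0 made up 4.17 to 4.86% in stretch libraries and 10.9, 21.4 and 5.09% in doxorubicin libraries 1, 2 and 3. Across genes, the log-CPM of stretch libraries correlated with each other at a Pearson r of 0.939 to 0.978, and that of doxorubicin libraries at 0.754 to 0.884. Levels of different genes are not compared, because the counts are of amplified fragments and carry no length.

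Of the dynamin-like GTPases, MX1 separated the groups and MX2 did not. MX1 (chromosome 21, 41420304 to 41459214) had 1.60, 0.535, 1.19 and 1.40 CPM in stretch libraries 4, 5, 6 and 7, against 155, 96.8 and 43.1 CPM in doxorubicin libraries 1, 2 and 3. Every doxorubicin library lay above every stretch library, the lowest 26.9 times the highest. The group means were 1.18 ± 0.463 CPM (SD, n = 4) after stretch and 98.3 ± 55.9 CPM (SD, n = 3) after doxorubicin. Its log2 fold change, stretch minus doxorubicin, was -6.36 (SE 0.535). The stretch values rest on 12, 5, 11 and 13 counts, above the level of 3 counts. MX2 lies next to MX1 on the same chromosome (41361943 to 41409390) and codes for a nuclear-envelope relative that restricts HIV and herpesviruses. MX2 had 2, 4, 2 and 8 counts in stretch libraries 4, 5, 6 and 7, against 1, 0 and 9 counts in doxorubicin libraries 1, 2 and 3. In CPM these are 0.267, 0.428, 0.216 and 0.861 after stretch, and 0.397, 0 and 1.70 after doxorubicin. The groups overlap, MX2 was too low to be tested, and the ratio of the pooled CPM, stretch over doxorubicin, was 0.405 with an exact 95% interval of 0.173 to 0.999. Such an interval covers counting error only, and the library at 0 allows up to 2.59 CPM.

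BST2 and IFI6 also separated the groups fully, with doxorubicin library 1 highest and library 3 lowest among doxorubicin libraries. BST2 (chromosome 19, 17402939 to 17405648) had 1.34, 1.60, 1.19 and 0.323 CPM in stretch libraries 4, 5, 6 and 7, against 43.3, 35.5 and 26.5 CPM in doxorubicin libraries 1, 2 and 3. The doxorubicin libraries were close together, the highest 1.64 times the lowest, and all were far above stretch, where library 7 rests on 3 counts. The log2 fold change of BST2 was -4.95 (SE 0.472), between means of 1.11 ± 0.554 CPM (SD, n = 4) after stretch and 35.1 ± 8.42 CPM (SD, n = 3) after doxorubicin. IFI6 (chromosome 1, 27666061 to 27672218) had 12.7, 11.8, 12.2 and 9.68 CPM in stretch libraries 4, 5, 6 and 7, against 628, 222 and 206 CPM in doxorubicin libraries 1, 2 and 3. The stretch libraries were nearly level and doxorubicin library 1 was the highest, about 3.04 times library 3. The log2 fold change of IFI6 was -4.92 (SE 0.455), and -4.20 without doxorubicin library 1. IFI6 resists apoptosis in several human cell lines and shields cells from flaviviruses, and it is related in sequence to IFI27.

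IFI27, a mitochondrial and nuclear-envelope protein, was seen almost only after doxorubicin, and not in every library. IFI27 (chromosome 14, 94104836 to 94116698) had 0, 0, 1 and 0 counts in stretch libraries 4, 5, 6 and 7, against 8, 0 and 46 counts in doxorubicin libraries 1, 2 and 3. In CPM these are 0, 0, 0.108 and 0 after stretch, and 3.18, 0 and 8.70 after doxorubicin. Doxorubicin library 2 gave no count, where up to 2.59 CPM is allowed, so the ranges overlap. Summed over libraries, stretch over doxorubicin was 0.00469 with an exact 95% interval of 0.000117 to 0.0273, for counting error only. IFI27 failed the filter on low counts and so was not tested with the filter and all 7 libraries. It was called with no filter, with DESeq2 and without doxorubicin library 2, the doxorubicin library with no count of it. IFI27 reached the filter's level of 1.77 CPM in 2 doxorubicin and 0 stretch libraries, so these calls rest on doxorubicin libraries 1 and 3. Its neighbour and relative IFI27L2 had 15.9 ± 2.53 CPM (SD, n = 4) after stretch and 66.3 ± 41.3 CPM (SD, n = 3) after doxorubicin, with a log2 fold change of -2.05 and of -0.33 against doxorubicin library 3 alone. IFI27L2 passed with an adjusted p of 0.0493 by edgeR's quasi-likelihood test and missed the threshold in 6 of the 7 fits with a library left out, all but the one without doxorubicin library 3. IFI27L1 had a log2 fold change of 0.84 and did not pass. It was called with quality weights, at 2.29, and without doxorubicin library 3, at 2.62, and stood at 0.02 against that library alone. The fit with quality weights called 5276 of 11230 genes, and the one without doxorubicin library 3 called 3736 of 11618.

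IFI44, which binds GTP, showed another order of libraries. IFI44 (chromosome 1, 78649796 to 78664078) had 1.74, 2.89, 5.51 and 2.47 CPM in stretch libraries 4, 5, 6 and 7, against 19.9, 4.32 and 38.0 CPM in doxorubicin libraries 1, 2 and 3. Doxorubicin library 3 was the highest and library 2, with 5 counts, fell inside the stretch range, so the groups overlap. The log2 fold change was -2.77 (SE 0.596), -2.005 without doxorubicin library 3 and -3.56 against that library alone. The highest doxorubicin value of IFI44, IFI27 and MX2 was that of library 3, while that of MX1, BST2, IFI6, IFITM2 and IFITM3 was that of library 1. No member was highest in doxorubicin library 2.

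Of the measured IFITM genes, IFITM3 separated the groups and IFITM2 did not. IFITM3, which acts in endosomes against influenza virus and is coded on chromosome 11 (319669 to 327537, minus strand), had 4.81, 7.38, 5.30 and 8.28 CPM in stretch libraries 4, 5, 6 and 7, against 87.4, 34.6 and 32.5 CPM in doxorubicin libraries 1, 2 and 3. The lowest doxorubicin library was 3.92 times the highest stretch library. The log2 fold change of IFITM3 was -2.997 (SE 0.420), and -2.36 without doxorubicin library 1. IFITM2, its close relative (307631 to 315272, plus strand), had 159, 227, 179 and 194 CPM in stretch libraries 4, 5, 6 and 7, against 370.5, 239 and 167 CPM in doxorubicin libraries 1, 2 and 3. The groups overlap, and doxorubicin library 3 fell within the stretch range. The log2 fold change of IFITM2 was -0.45 (SE 0.333), and it turned to 0.20 against doxorubicin library 3 alone and to 0.36 with library totals alone. With library totals the median of all genes was itself 0.71, and relative to that median IFITM2 stood at -0.35. The difference between IFITM3 and IFITM2 was not tested. The family is near-identical in parts: in the annotated transcripts, 36.4% of the distinct 31-base words of IFITM3 and 45.2% of those of IFITM2 also occur in another gene, and the annotated interval of IFITM2 contains that of IFITM1 (313506 to 315272). How shared reads were divided is not given in the sources used here, so both values are uncertain. The shares were 2.14% for MX1, 0.453% for IFI6 and 0% for BST2 and IFI44. All are over whole transcripts, whereas a short fragment per gene was amplified, so the share within the fragments read is not known here. IFITM10, a further relative, had a log2 fold change of -2.03, which did not pass. It was called at -2.53 without doxorubicin library 3, at -2.04 with DESeq2 and at -2.20 with quality weights. Against doxorubicin library 3 alone it stood at 0.59.

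**Figure D2:**
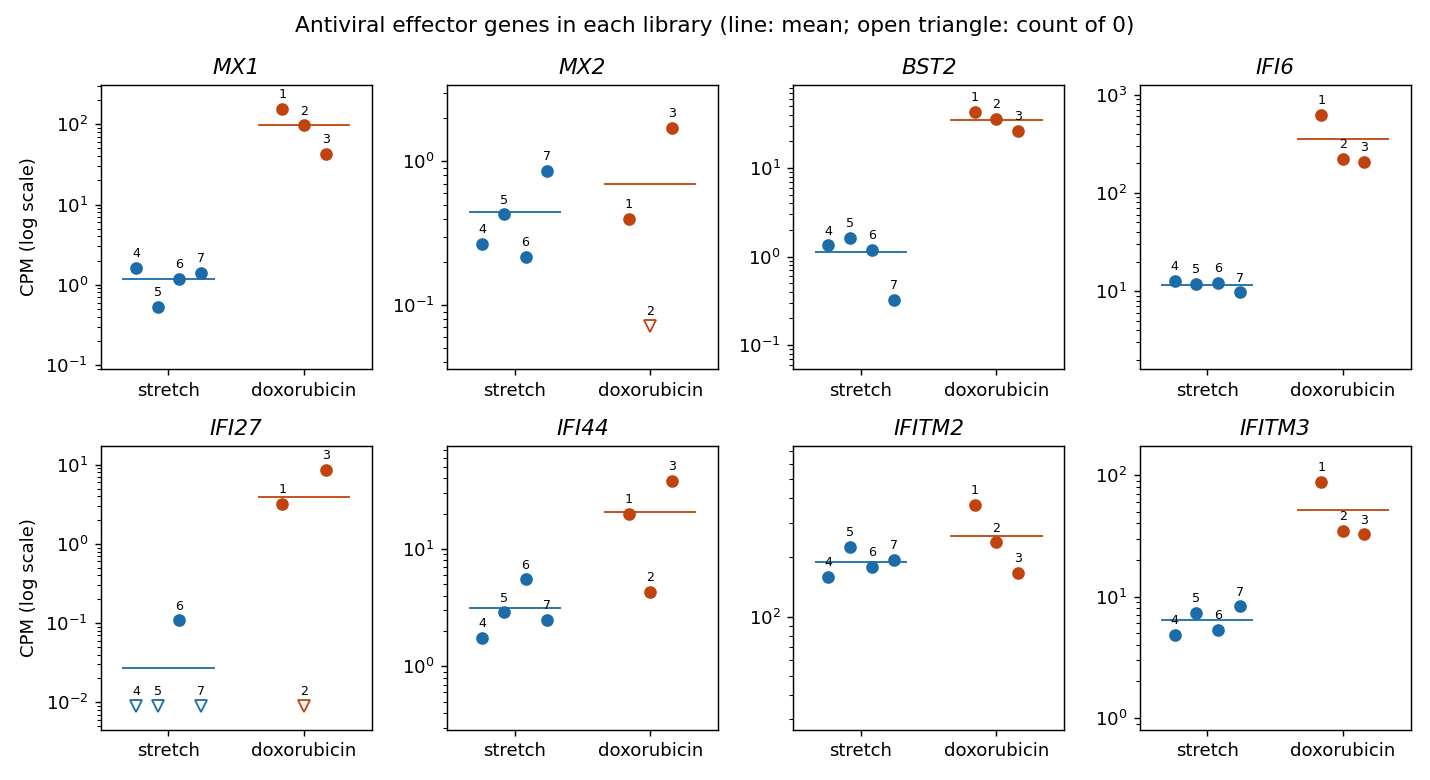
CPM on a log axis for the 8 measured members, with stretch libraries (blue, 4 to 7) left of doxorubicin libraries (orange, 1 to 3), group means as lines and counts of 0 as open triangles at an arbitrary low level. MX1, BST2, IFI6 and IFITM3 separate fully, while MX2, IFI27, IFI44 and IFITM2 overlap.

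Of the 8 measured members, 6 passed the filter on low counts, and 5 of those 6 (MX1, BST2, IFI6, IFITM3 and IFI44) had an adjusted p under 0.05 in edgeR's quasi-likelihood test, all lower after stretch. Among all 11230 genes tested, 1.97% were called lower after stretch and 2.32% in either direction. Group ranges did not overlap for 4 members, all lower after stretch, against 9.88% of all tested genes. As the members were chosen with this comparison known, these counts are a description. MX1 and BST2 each reached the filter's level in 3 doxorubicin and 2 stretch libraries, so they needed doxorubicin libraries to pass it. The median log2 fold change of the 6 was -3.96, and that of all genes was 0.02. MX1, BST2 and IFI6 passed in all 17 alternatives. IFITM3 and IFI44 missed the threshold without doxorubicin library 1 and without stretch library 4, 5, 6 or 7, when 3 members were called. Both also missed it with library totals alone, and IFI44 with upper-quartile factors, limma-voom and a minimum mean of 10 CPM, so that IFITM3 was called in 11 of the 17 and IFI44 in 8. IFITM2 was called in 1, voom with quality weights, where 5276 genes were called in all. Calls over all genes fell from 261 to 23 without doxorubicin library 1, and to between 12 and 40 without a stretch library. With doxorubicin library 3, which correlated with the stretch libraries at an r of 0.915 to 0.941, as the only doxorubicin library, the log2 fold changes of MX1, BST2, IFI6 and IFITM3 were -5.17, -4.55, -4.14 and -2.31. That fit has 1 doxorubicin library, which is assumed to vary as the stretch libraries do, and it called 6 members, IFI27 included, where 0.802% of all genes were called.

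**Figure D3:**
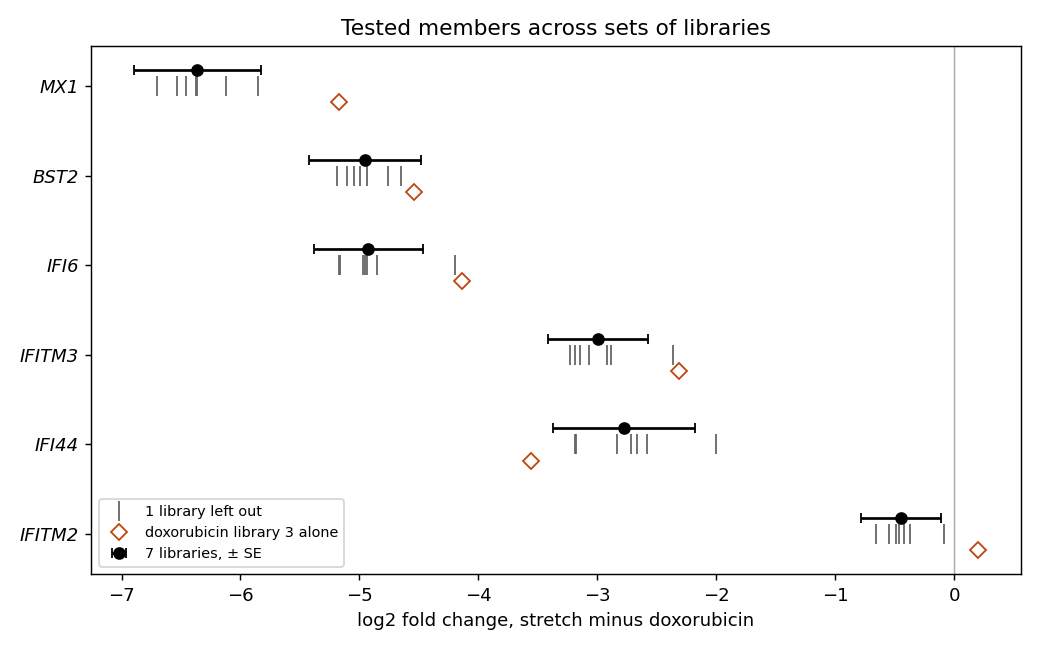
Log2 fold change (stretch minus doxorubicin) of the 6 tested members with 7 libraries (black, ± SE), with each library left out in turn (grey ticks) and against doxorubicin library 3 alone (open diamonds). Values of MX1, BST2, IFI6, IFITM3 and IFI44 stay below 0 throughout, and IFITM2 reaches 0.20.

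Other interferon-stimulated effectors were on the same side as the members. Of 31 tested genes among 40 listed, 19 were called, all lower after stretch. All 31 had a log2 fold change below 0, with a median of -1.77. Among all tested genes, 1.97% were called lower after stretch and 48.8% had a log2 fold change below 0. The largest differences were in ISG15, a ubiquitin-like modifier (-5.87), OASL, an activator of RIG-I (-5.44), RSAD2 (-5.16) and DDX60, a helicase (-3.91). RSAD2, or viperin, makes a chain-terminating nucleotide. In stretch libraries 4, 5, 6 and 7, OASL had 1, 8, 5 and 2 counts and RSAD2 had 0, 0, 1 and 4. Both genes needed doxorubicin libraries to pass the filter on low counts. IFIT1, IFIT2 and IFIT3, which bind viral RNA or one another, had log2 fold changes of -3.55, -2.88 and -2.82, and the ubiquitin ligase TRIM22 -3.11. IFIT1 and IFIT2 missed the threshold without doxorubicin library 1, at -2.73 and -2.32, and without stretch library 4, 5, 6 or 7. With library totals alone, IFIT1, IFIT2 and IFIT3 all missed it. The number of effectors called was 5 to 25 when a library was left out. It was lowest without doxorubicin library 1 or stretch library 5, 6 or 7, and 6 without stretch library 4. ISG15, OASL, DDX60, TRIM22 and IFIT3 were called in every such set. Against doxorubicin library 3 alone the median was -1.59. ISRE letters stood in the promoters of 24 of the 35 listed genes with a RefSeq promoter, against 4.38% of all genes with one.

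Upstream of the effectors, STAT2 and IRF9 had smaller log2 fold changes than most effectors, a difference that was not tested. Of the 7 tested genes for receptors, kinases and ISGF3, edgeR called 0, with 4 at an unadjusted p under 0.05, while DESeq2 called 3 and limma-voom 0. The log2 fold changes of STAT2 and IRF9 were -1.27 and -1.07. The kinase JAK1 and the type III interferon receptor IFNLR1 had values of 0.90 and 1.04, on the stretch side. Ranges of the groups did not overlap for 4 of the 7 tested genes, against 21.4% of all tested genes. STAT2 and IRF9, lower after stretch, and IFNLR1, higher after stretch, were among the 4. Without doxorubicin library 3, STAT2, IRF9 and IFNLR1 were called, IFNLR1 at 1.68, in a fit that called 3736 of 11618 genes. The list's median was -0.44, and 0.14 against doxorubicin library 3 alone.

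Among 9 tested sensors and inducers, 3 were called, all lower after stretch, where 1.97% of all tested genes were. IRF7, which drives interferon transcription and is itself interferon-induced, had a log2 fold change of -5.36, or -3.90 against doxorubicin library 3 alone, and was called in all 7 fits with a library left out. IRF7 had 5, 10, 14 and 13 counts in stretch libraries 4, 5, 6 and 7 and needed doxorubicin libraries to pass the filter. IFIH1 (MDA5), a sensor of double-stranded RNA, had a log2 fold change of -2.63, and DNA-binding IFI16 had -2.38, or -1.74 without doxorubicin library 1. Both missed the threshold without doxorubicin library 1 and without stretch library 4, 5, 6 or 7. CGAS, the cytosolic DNA sensor, did not pass and lay on the other side, at 16.4 ± 1.49 CPM (SD, n = 4) after stretch and 5.76 ± 4.60 CPM (SD, n = 3) after doxorubicin (log2 fold change 1.34). CGAS was called without doxorubicin library 3, at 2.20, with DESeq2 and with quality weights, and stood at 0.62 against that library alone. For CGAS, as for the 3 called genes, the ranges of the groups did not overlap, against 21.4% of all tested genes. The CGAS partner STING1 was too low to be tested.

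Feedback inhibitors of the pathway gave no call among 8 tested by edgeR, with 4 at an unadjusted p under 0.05, 2 calls by DESeq2 and 0 by limma-voom. USP18, which displaces JAK1 from the receptor, had 15.9 ± 1.67 CPM (SD, n = 4) after stretch and 33.2 ± 10.2 CPM (SD, n = 3) after doxorubicin, a log2 fold change of -1.04. CISH, PIAS1 and the phosphatase PTPN6 had -1.61, -1.06 and 0.71, and CISH and PIAS1 stood at -0.52 and 0.12 against doxorubicin library 3 alone. USP18, CISH and PIAS1 were called without that library. Ranges of the groups did not overlap for USP18, lower after stretch, and PTPN6, higher after stretch. The share of all tested genes without overlap was 21.4%. Of 6 tested genes more typical of interferon gamma and IRF1, GBP2, a guanylate-binding GTPase, was called, with a log2 fold change of -2.27. GBP2 stood at -0.60 against doxorubicin library 3 alone and missed the threshold in every fit with a library left out except the one without doxorubicin library 3. GBP3, IRF1 and the MHC class II activator CIITA did not pass, at -2.26, -0.62 and 1.07. Without doxorubicin library 3, GBP3 was called at -2.60 and CIITA at 2.19, and against that library alone they stood at -1.19 and 0.33. GBP3 was also called with DESeq2, and both with quality weights. The medians of the inhibitors and of the interferon gamma genes were -0.53 and -0.35. The latter depended on which genes were tested. It was -1.34 with no filter (10 genes), -1.44 with DESeq2 (8 genes) and -1.41 at a mean of at least 10 CPM (4 genes).

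**Figure D4:**
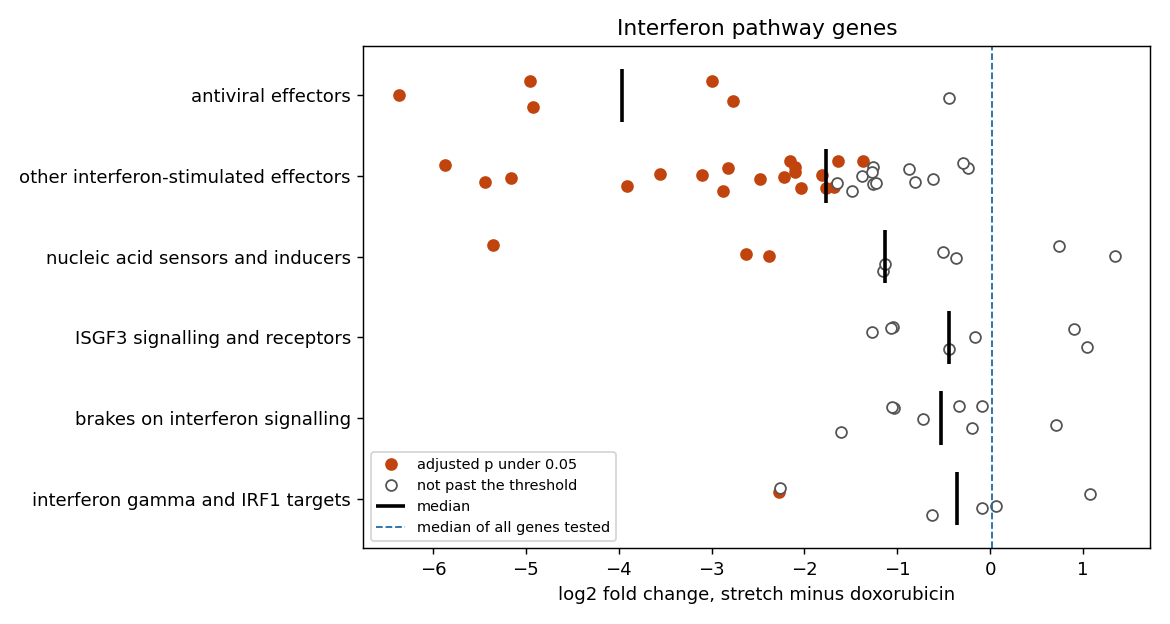
Log2 fold change (stretch minus doxorubicin) of each tested gene by list, with called genes filled in orange, others open, list medians as black bars and the median of all genes, 0.02, as a dashed line. The effectors, with a median of -1.77, spread far to the left, whereas the medians of ISGF3 genes, inhibitors and interferon gamma targets lie nearer 0. Interferon gamma targets run from -2.27 (GBP2) to 1.07 (CIITA).

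The genes with a level profile most like the mean log-CPM of the 8 measured members over the 7 libraries, among 7496 with a mean of at least 10 CPM, were PALMD, DCAF4, S1PR3, ATRNL1, IFIT1 and TRIM22. Their Pearson correlations were 0.995, 0.990, 0.977, 0.976, 0.972 and 0.971. The libraries share the group split, so any gene that separates the groups scores high. PALMD had 4.73 ± 0.791 CPM (SD, n = 4) after stretch and 26.5 ± 9.83 CPM (SD, n = 3) after doxorubicin. DCAF4 and S1PR3 followed the members' pattern with much smaller log2 fold changes, of -0.76 and -0.83, that did not pass.

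Epithelial keratins were measured in every library, and marker sums differed between groups. The summed level of 9 measured epithelial markers of 10 was 2066 to 2402 CPM after stretch and 3293 to 6773 CPM after doxorubicin. Within them KRT18 was called (log2 fold change -2.20), though not without doxorubicin library 1 or stretch library 4, 5, 6 or 7, and EPCAM was not (1.79), except without doxorubicin library 3, with DESeq2 and with quality weights. Of 12 leukocyte markers, 5 were measured, summing to 58.8 to 61.8 CPM after stretch and 103 to 145 CPM after doxorubicin. CD68, a lysosomal protein of macrophages and other cells, was the called one (-2.02), and it missed the threshold without doxorubicin library 1 or stretch library 4, 5, 6 or 7, while the defining markers PTPRC and CD3E were not analysed here. Of 10 fibroblast markers 7 were measured, with sums of 15.6 to 16.8 CPM after stretch and 19.3 to 45.0 CPM after doxorubicin. For 3 of 8 endothelial markers the sums were 2.89 to 3.98 CPM after stretch and 0.865 to 2.65 CPM after doxorubicin. The part of these markers, of library depth and of the EIF4A2 share in the differences of the antiviral genes was not tested.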

How the data were processed

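Gene expression was measured in 7 A549 libraries, 4 after stretch and 3 after doxorubicin, grouped and numbered by sample title. Per the labels' protocols, Trizol was used for RNA and an Ion AmpliSeq kit for the libraries, which amplifies a short fragment per gene by PCR without molecular identifiers. The authors deposited 1 table of whole numbers, read here as rounded estimated counts per gene, with no scaling. The tools were fastp 0.20.1 and Salmon 1.9 with GRCh38, per the submitters' processing notes, and the annotation is not given in the sources used here. Each of 14647 rows has a count in at least 3 libraries. Rows of 64 repeated symbols were summed, and Metazoa_SRP, a family name, was left out (at most 0.00861% of a library).

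The test was edgeR's quasi-likelihood test (4.0.16, R 4.3.3) of stretch minus doxorubicin after filterByExpr and TMM scaling. P-values were adjusted over all 11230 tested genes by Benjamini-Hochberg, and those under 0.05 are called. SE is the log2 fold change over the square root of F, and log-CPM used a prior count of 2. The test was checked on simulated counts. Alternatives were RLE, upper-quartile and unscaled totals, 2 filters, DESeq2 1.42.0, limma-voom 3.58.1 with and without quality weights, repeated symbols left out, each library left out, and doxorubicin library 3 alone. Coordinates are from GENCODE 29. Named are all members; from each pathway, ligand and paralog list up to 4 genes with the lowest adjusted p and up to 8 with the largest change among those whose groups do not overlap; and the 6 genes most like the members. Of the marker lists, sums are given and only called genes and EPCAM are named, a choice made after their values were seen. Single values of some listed genes are not reported here. The members and lists were chosen with earlier results of these data known.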

Additional observations from a re-analysis of the deposited data

Results flagged for a closer look

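In 46 groups of 4 stretch libraries, 1 for each measured member and each other gene that the rule for named genes chose, 4 held a library far from the other 3, where chance gives about 1 in 20. IFI27 stood at 0.108 CPM in stretch library 6, from 1 count, with the others at 0. A single count among counts of 0 always meets this check, so the rate of 1 in 20 does not apply to IFI27. IRF9 was low in stretch library 4, at 11.6 CPM. CISH was high in stretch library 5, at 3.74 CPM, and IFNLR1 was high in stretch library 7, at 65.4 CPM. Groups of 3 doxorubicin libraries are too small for this check.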

How the results depend on the processing

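With 7 libraries, 261 genes were called. The count was 13 with library totals alone, 143 at a mean of at least 10 CPM, 1315 with DESeq2, 5276 with voom and quality weights, 99 against doxorubicin library 3 alone, and 12 to 3736 when a library was left out. The 3736 genes were called without doxorubicin library 3, and 289 were called without doxorubicin library 2. Without doxorubicin library 1, or without a stretch library, 12 to 40 were called. For the antiviral members, 5 were called, 3 with library totals alone and 3 to 6 with a library left out. The other effectors gave 19 calls, 3 with library totals alone, 29 with DESeq2, 29 with quality weights, and 5 to 25 with a library left out. Genes of ISGF3 and receptors gave 0 calls, 3 with DESeq2, 5 with quality weights, 1 against doxorubicin library 3 alone, and 0 to 4 with a library left out. Sensors gave 3 calls, 1 with library totals alone, 6 with quality weights, and 1 to 6 with a library left out. Inhibitors gave 0 calls, 2 with DESeq2, 5 with quality weights, and 0 to 3 with a library left out. Interferon gamma and IRF1 targets gave 1 call, 0 with library totals alone, limma-voom or a mean of at least 10 CPM, 3 with no filter, 4 with DESeq2, 3 with quality weights, and 0 to 3 with a library left out. The direction turned for uncalled genes: IFITM2 was 0.36 with library totals alone and 0.20 against doxorubicin library 3 alone, where IFITM10 was 0.59, PIAS1 0.12 and IFNE -0.67. IRF1 was 0.17 with library totals alone, DNM2 -0.23 with quality weights, and with a library left out IFNA1 ran from -0.078 (without doxorubicin library 1) to 0.61 and IFNE from -0.038 (without doxorubicin library 2) to 1.62. The causes of these moves were not tested. No paired analysis was possible because the groups share no replicate number. Low counts limit MX2, IFI27 and doxorubicin library 2, where 3 counts are 2.59 CPM.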

Other observations

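Most of the interferon ligand genes measured were at low counts. Of 21 listed, 9 were measured, and 7 of these were too low to be tested. These had at most 3 counts in a stretch library and at most 8 in a doxorubicin library. Summed, they had 20 counts after stretch and 41 after doxorubicin, from scaled library sizes that sum to 35382537 and 8965001. IFNA13 had 0 counts in all 4 stretch libraries, against 8, 1 and 2 counts in doxorubicin libraries 1, 2 and 3. IFNA1 had 45.0 ± 10.2 CPM (SD, n = 4) after stretch and 39.1 ± 19.1 CPM (SD, n = 3) after doxorubicin, and its log2 fold change of 0.22 did not pass. IFNE, an epithelial interferon, had 53.6 ± 15.7 CPM (SD, n = 4) after stretch and 40.1 ± 40.2 CPM (SD, n = 3) after doxorubicin, with a log2 fold change of 0.37 that did not pass but was called at 1.62 without doxorubicin library 3. IFNB1, IFNG and the type III interferons were not analysed here. The alpha interferon genes are close copies of each other, so their counts are uncertain. Among dynamin-family relatives of MX1 and MX2, the membrane-scission GTPase DNM2 had a log2 fold change of 0.29 and did not pass.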
